A study of Mus musculus with 15 samples.

Results

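Myosins are motor proteins that walk or pull on actin filaments, and 9 of their heavy chain genes were followed across T cell priming: Myo6, Myo1c, Myo1e, Myo1f, Myo1g, Myo5a, Myo9b, Myo18a and Myh9. They were taken by gene symbol from a table of 49492 genes, and all 9 were found and passed the filter on low counts. Myo6 leads the group because an earlier look at these libraries showed it lower in T cells from Batf3-/- recipients than in T cells from wild-type (WT) recipients. Myo6 was thus chosen by its CPM values in Batf3-/- and WT libraries and by the fitted difference between them, and the other 8 were added to set beside it. The recipient differences of all 9 genes are therefore given as a description, without a test.

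The data were bulk RNA-seq of 15 mouse libraries, 3 in each of 5 groups, all of CD4 T cells with the transgenic OT-II receptor, which recognises ovalbumin (OVA). In 4 groups, CD45.1+ naive OT-II cells had been transferred into mice, and 24 hours later the recipients received 60 µg OVA with 30 µg papain, a protease used as a type 2 adjuvant, into the nose in 3 doses. The recipients were Batf3-/- or C57BL/6 (WT) mice, both CD45.2+. CD44 high donor cells were sorted from the mediastinal lymph nodes on day 5 into CD62L- and CD62L+ cells, which gave the groups Batf3-/- CD62L-, WT CD62L-, Batf3-/- CD62L+ and WT CD62L+. The control was naive OT-II cells, low for CD44 and positive for CD62L, taken from spleens and superficial lymph nodes of CD45.1 OT-II mice that had received nothing. The Batf3 deletion was in the recipients, while the sequenced donor cells of all 5 groups came from the same CD45.1 OT-II stock. Batf3 is a transcription factor required for type 1 conventional dendritic cells. The age of the mice, and whether cells of several mice were pooled for a library, are not given in the sources used here. The p-values therefore measure the spread between these libraries.

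Each library held between 38082967 and 99380475 counts, and 19260 to 21331 genes had counts. The 8 T cell markers checked were present in every group and summed to 12140 to 19820 CPM (counts scaled to a common library size, so that levels can be compared between libraries). The 12 B cell markers summed to 31.4 to 46.6 CPM in Batf3-/- CD62L- cells, 16.9 to 19.9 CPM in WT CD62L- cells, 134 to 179 CPM in Batf3-/- CD62L+ cells, 125 to 161 CPM in WT CD62L+ cells and 47.5 to 54.7 CPM in naive cells. The 13 dendritic cell and macrophage markers stayed between 16.8 and 32.3 CPM in all. Clec9a, a marker of type 1 conventional dendritic cells, was at 0 counts in every group. Xcr1, another marker of these cells on the same list, had counts in every group. The 8 neutrophil markers reached at most 1.73 CPM in a library, and the 12 stromal and endothelial markers summed to 171 to 243 CPM, of which Pecam1 alone gave 165 to 242 CPM. Genes of ribosomal RNA loci took 2.29% to 3.09% of counts in the 5 libraries numbered 1 and 4.85% to 9.62% in the other 10. The WT CD62L- library numbered 3 had the lowest total and the Batf3-/- CD62L- library numbered 3 the highest share of ribosomal RNA loci. Without both, the same number of the 9 genes, 6 with Myo6 counted, was called between primed and naive cells.

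As background, a myosin heavy chain has a motor head that binds actin and hydrolyses ATP, a neck that binds light chains or calmodulin, and a tail that selects the cargo. Myosin VI, encoded by Myo6, moves toward the minus end of actin filaments, the opposite of other known myosins, and serves endocytosis and autophagy through adaptor proteins. Class I myosins are single-headed and link actin to membranes. In T cells, nonmuscle myosin IIA, whose heavy chain is Myh9, contracts the rear of the migrating cell and takes part in the immunological synapse.

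The stretch of coding sequence around the nucleotide-binding loop of the motor head is shown for Myo6, for Myo1c, Myo1e and Myo1f, the class I genes that differed most between primed and naive cells, and for Myh9, because it shows how far these genes differ at a site all of them need. Each line is 54 bases, 5′ to 3′, from the longest reading frame of a GENCODE M21 transcript, and capitals mark bases that differ from Myo6.
Myo6: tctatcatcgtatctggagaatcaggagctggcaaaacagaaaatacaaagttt
Myo1c: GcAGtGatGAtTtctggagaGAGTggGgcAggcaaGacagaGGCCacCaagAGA
Myo1e: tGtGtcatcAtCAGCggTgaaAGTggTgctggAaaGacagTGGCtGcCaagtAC
Myo1f: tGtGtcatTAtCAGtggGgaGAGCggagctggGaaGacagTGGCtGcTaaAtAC
Myh9: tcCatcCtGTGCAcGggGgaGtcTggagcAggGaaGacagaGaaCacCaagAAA
Of the 54 bases, Myo1c and Myo1e each differed from Myo6 at 22, Myo1f at 23 and Myh9 at 20. Among the 4 genes not printed, Myo5a differed at 17, Myo9b at 19, Myo1g at 23 and Myo18a at 31. No stretch of 50 bases was shared between transcripts of any of the 36 pairs of these 9 genes, so an exact read of that length could belong to 1 of them only.

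The deposited table places the genes on the mm10 build, and each overlaps the gene of that name in GENCODE M21. Myo6 lies at chr9:80165031-80311729 on the plus strand, with 12078 bases of exons in 37 blocks. Myo1e lies on the same chromosome at chr9:70207350-70399766 and Myo5a at chr9:75071015-75223688, both on the plus strand. On chromosome 11, Myo1c (chr11:75650504-75673910) and Myo18a (chr11:77763246-77865980) are on the plus strand and Myo1g (chr11:6506548-6520965) is on the minus strand. Myo1f is at chr17:33555719-33607764 and Myo9b at chr8:71272714-71360713, both on the plus strand, and Myh9 is at chr15:77760587-77842175 on the minus strand. Counts cover whole exons, so they do not separate splice forms. Myo9b shares 116 exonic bases, 1.55% of its exon length, with Haus8 on the opposite strand, and the other 8 genes share none with another gene in the table.

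Per kilobase of exon, Myo1g, a haematopoietic class I myosin of the T cell membrane, and Myh9 held the highest levels in every group. Myo1g averaged 27.1 ± 3.28 CPM per kb in Batf3-/- CD62L- cells, 28.9 ± 0.673 in WT CD62L- cells, 29.6 ± 1.25 in Batf3-/- CD62L+ cells, 35.5 ± 1.76 in WT CD62L+ cells and 26.4 ± 1.53 in naive cells (SD, n = 3 each). Myh9 averaged 16.2 ± 4.58, 15.1 ± 2.17, 15.5 ± 2.26, 15.7 ± 2.60 and 12.04 ± 2.10 CPM per kb in the same groups and order. Together these 2 genes made up 60.9%, 59.1%, 63.0%, 65.2% and 71.7% of the summed CPM per kb of the 9 genes. The share of Myo1c, Myo1e and Myo1f together was 19.9% in Batf3-/- CD62L- cells, 19.8% in WT CD62L- cells, 20.7% in Batf3-/- CD62L+ cells and 16.2% in WT CD62L+ cells, against 2.49% in naive cells. Myo6 took 1.16% and 0.878% of the sum in the Batf3-/- CD62L- and CD62L+ groups, 4.55% and 3.57% in the WT CD62L- and CD62L+ groups, and 4.18% in naive cells. Myo5a had the lowest level of the 9 per kb in every primed group, at 0.355 to 0.522 CPM per kb. In naive cells Myo1e, at 0.176 ± 0.111 CPM per kb, and Myo5a, at 0.211 ± 0.0585 CPM per kb, were the lowest (SD, n = 3 each).

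**Figure D1:**
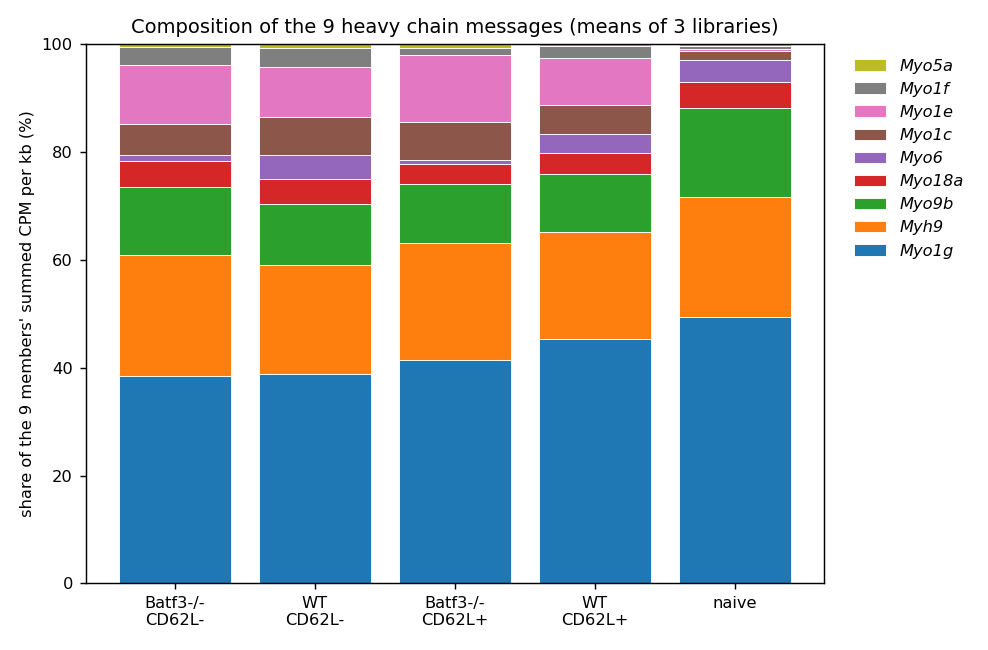
Share of each gene in the summed CPM per kb of the 9 myosin heavy chain genes, as a percentage, in the 5 groups. Values are means of 3 libraries. All stacks have the same height, so they do not show the summed level, which was 53.6 CPM per kb in naive and 78.4 in WT CD62L+ cells. Myo1c, Myo1e and Myo1f together take 16.2% to 20.7% of the stack in the primed groups and 2.49% in naive cells, and Myo6 is a thin layer in both Batf3-/- groups.

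Myo6 had the pattern that set it apart in the choice of genes: low in both groups from Batf3-/- recipients, high in both groups from WT recipients, and between them in naive cells. It had 8.94, 9.28 and 11.4 CPM in the Batf3-/- CD62L- libraries, against 37.3, 37.9 and 47.2 CPM in the WT CD62L- libraries. It had 10.2, 7.73 and 4.45 CPM in the Batf3-/- CD62L+ libraries, against 36.6, 31.1 and 33.4 CPM in the WT CD62L+ libraries. In the naive libraries it had 25.2, 30.3 and 25.1 CPM. All 6 Batf3-/- libraries lay below all 3 naive libraries, and all 6 WT libraries lay above them, with no overlap between the 3 sets. This separation is a description, and the share of all genes that separate in this way was not counted. The raw counts behind these values were 350 to 836 in Batf3-/- libraries, 1700 to 3301 in WT libraries and 2042 to 2631 in naive libraries. Ordered by mean, WT CD62L- came first, followed by WT CD62L+, naive, Batf3-/- CD62L- and Batf3-/- CD62L+. Each neighbour in this order was separate from the next except the Batf3-/- pair, whose libraries overlapped. In bulk libraries, fewer Myo6-expressing cells and less Myo6 RNA per cell cannot be told apart.

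The fitted recipient difference of Myo6 was of like size in both subsets. The log2 fold change of Batf3-/- over WT was -2.05 (SE 0.24) in CD62L- cells and -2.17 (SE 0.24) in CD62L+ cells, and the difference between these values was 0.12 (SE 0.33). Averaged over subsets it was -2.11 (SE 0.17), a 4.32-fold lower level, at 8.67 CPM in Batf3-/- and 37.2 CPM in WT libraries. These values chose the gene and carry no test. Across all genes tested, edgeR's quasi-likelihood test called 0.441% in this average (88 genes), and in 0.757% of genes the 6 Batf3-/- and 6 WT libraries did not overlap. Of the 10751 genes with at least 5 CPM in their highest primed group, 4 had a larger difference in size than Myo6, and 2 of these were lower in Batf3-/- libraries. Of the 14226 genes with at least 1 CPM, 58 had a larger one, and of all 19942 genes tested, 962 did. Over the alternative settings and with each library left out in turn, the average of Myo6 stayed between -2.26 and -1.98. Without the WT CD62L- and Batf3-/- CD62L- libraries numbered 3 it was -2.105. Sums of markers of other cells moved with recipient in part. The B cell sum was higher in Batf3-/- than in WT CD62L- libraries and overlapped in CD62L+ ones, and the dendritic cell and macrophage sum was 25.9 to 27.6 CPM in Batf3-/- CD62L+ libraries, against 16.8 to 24.9 CPM in WT CD62L+ libraries, and overlapped in CD62L- ones. Their part in the Myo6 difference was not tested.

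**Figure D2:**
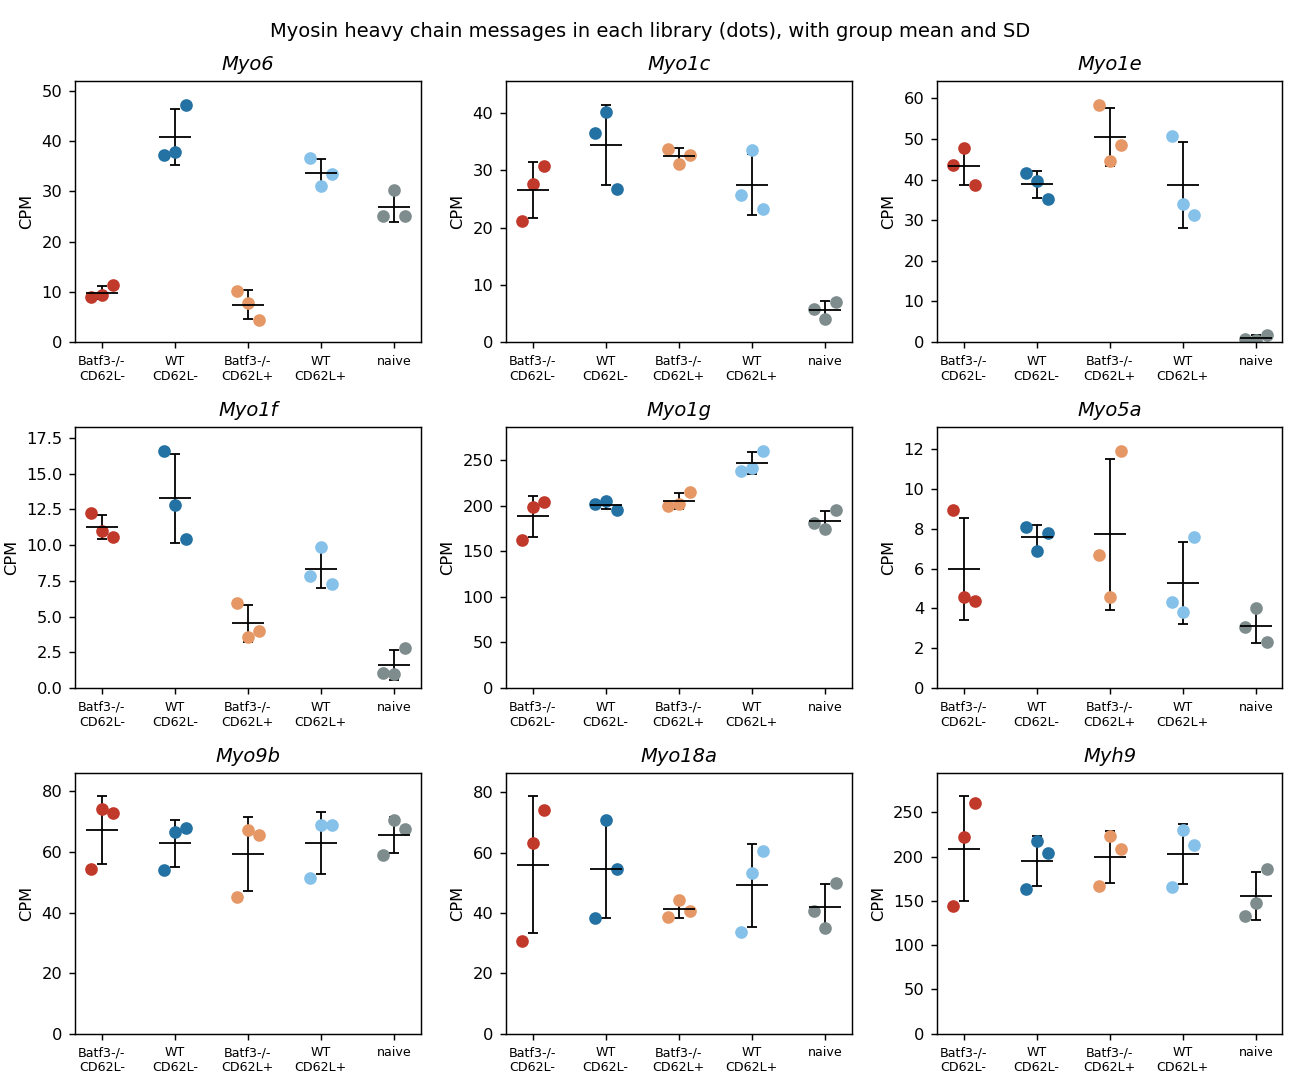
CPM of each of the 9 genes in each of the 15 libraries (dots), with the mean (horizontal line) and SD (error bar) of each group of 3, in panels with their own axes starting at 0. In the Myo6 panel the 6 Batf3-/- libraries, at 4.45 to 11.4 CPM, lie below the naive libraries, and in the Myo1c, Myo1e and Myo1f panels the naive libraries lie below all primed ones.

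None of the other 8 genes had a recipient difference near that of Myo6. Their average log2 fold changes of Batf3-/- over WT ran from -0.56 to 0.27, against a median of 0.005 over all genes tested. The next in size was Myo1f, a class I myosin of leukocytes, at -0.56 (SE 0.25), followed by Myo1e at 0.27 (SE 0.20) and Myo1g at -0.18 (SE 0.06). Myo18a, Myo5a, Myo1c, Myh9 and Myo9b were at -0.11, 0.11, -0.07, 0.04 and 0.01. In CD62L- cells Myo6 was the only one of the 9 whose Batf3-/- and WT libraries did not overlap, a state found in 14.1% of all genes there. In CD62L+ cells Myo6, Myo1f and Myo1g did not overlap, against 13.1% of all genes. Only Myo6 of the 9 did so in both subsets and in the same direction, as did 2.7% of all genes. Myo1f had 5.97, 3.57 and 4.02 CPM in the Batf3-/- CD62L+ libraries, against 7.82, 9.84 and 7.31 CPM in the WT CD62L+ libraries. All 3 Batf3-/- values were lower than the lowest WT one, and the fitted log2 fold change was -0.88 (SE 0.36). Myo1g had 199, 202 and 216 CPM in Batf3-/- CD62L+ libraries, against 238, 242 and 261 CPM in WT CD62L+ libraries, a log2 fold change of -0.26 (SE 0.09). For Myo1f and Myo1g the CD62L- libraries of the 2 recipients overlapped. The sign of the average turned for Myo1c, Myo5a, Myo9b, Myo18a and Myh9 when single libraries were left out, and stayed the same for Myo6, Myo1e, Myo1f and Myo1g.

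**Figure D3:**
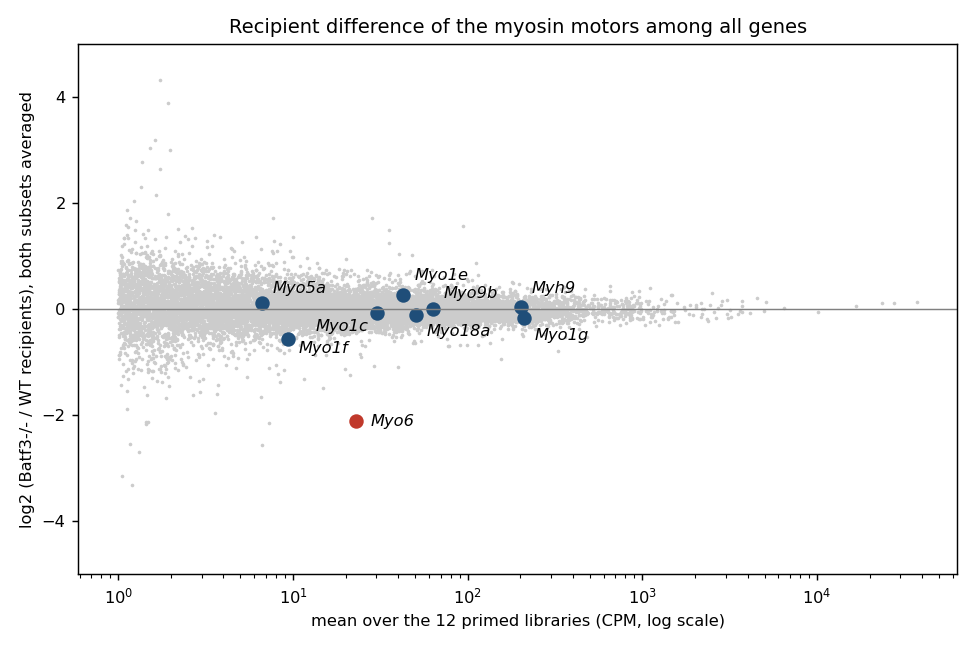
Average log2 fold change of Batf3-/- over WT recipients (vertical axis) against mean CPM on a log axis, for the 13526 tested genes with a mean of at least 1 CPM (grey), with the 9 myosin heavy chain genes marked. Myo6 lies at -2.11, and the other 8 lie between -0.56 and 0.27.

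The comparison of primed with naive cells asks how the myosin set changed with activation. Of the 9 genes, 5 were called higher and 1 lower in primed cells (edgeR's quasi-likelihood test, Benjamini-Hochberg adjusted p under 0.05, all 4 primed groups averaged against naive). Of all 19942 genes tested, 38.8% were called, 19.5% higher and 19.3% lower. The median log2 fold change was 0.37 over the 9 genes and -0.04 over all genes tested. The higher genes were Myo1e, Myo1f, Myo1c, Myo5a and Myo1g, of which the first 3 changed by more than 5-fold. Myo6 also passed the threshold, as lower, but its values in these primed libraries chose it, so its call is no test.

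Myo1e, a long-tailed class I myosin that works at sites of endocytosis and in podosomes, changed the most. It had 43.5, 47.7 and 38.6 CPM in Batf3-/- CD62L-, 41.6, 39.6 and 35.3 CPM in WT CD62L-, 58.4, 44.7 and 48.4 CPM in Batf3-/- CD62L+ and 50.8, 34.0 and 31.3 CPM in WT CD62L+ libraries, against 0.746, 0.540 and 1.72 CPM in naive libraries. Every primed library was higher than every naive one, as for Myo1c and Myo1f, a full separation found in 26.4% of all genes tested. Each primed group overlapped the next in order of mean. The log2 fold change of primed over naive was 5.41 (SE 0.34, adjusted p = 1.64e-08, edgeR), a 42.6-fold higher level. The lowest naive count was 44, so the size of the fold depends on small counts: it ran from 5.12 to 6.04 on the log2 scale over the alternatives. In CD62L- cells alone it was 5.44 in Batf3-/- and 5.28 in WT cells.

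Myo1c, a short-tailed class I myosin that links membranes to actin and takes part in vesicle delivery, rose in primed cells. It had 21.2, 27.7 and 30.8 CPM in Batf3-/- CD62L-, 36.6, 40.2 and 26.7 CPM in WT CD62L-, 33.8, 31.1 and 32.8 CPM in Batf3-/- CD62L+ and 25.7, 33.5 and 23.3 CPM in WT CD62L+ libraries, against 5.85, 4.004 and 6.99 CPM in naive libraries. The naive libraries lay apart below the rest, while neighbouring primed groups overlapped. Its log2 fold change was 2.42 (SE 0.20, adjusted p = 3.95e-07, edgeR), 5.36-fold.

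Myo1f rose as well, with its highest levels in CD62L- cells. It had 12.2, 10.98 and 10.6 CPM in Batf3-/- CD62L- and 16.6, 12.8 and 10.4 CPM in WT CD62L- libraries, and the CD62L+ values given above, against 1.013, 0.970 and 2.83 CPM in naive libraries. Every primed library was higher than every naive one, the nearest being the second Batf3-/- CD62L+ library. The log2 fold change of primed over naive was 2.43 (SE 0.34, adjusted p = 5.01e-05, edgeR), 5.41-fold.

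The promoters of Myo1e and Myo1f, which rose together, are shown with that of Myo6, which did not. Each is 300 bases around the annotated start from RefSeq on GRCm38.p6, given on the strand of the gene, and capitals mark matches to a GC box on either strand (CCGCCC where it lies on the opposite one).
Myo6 (chr9:80164784-80165083, +): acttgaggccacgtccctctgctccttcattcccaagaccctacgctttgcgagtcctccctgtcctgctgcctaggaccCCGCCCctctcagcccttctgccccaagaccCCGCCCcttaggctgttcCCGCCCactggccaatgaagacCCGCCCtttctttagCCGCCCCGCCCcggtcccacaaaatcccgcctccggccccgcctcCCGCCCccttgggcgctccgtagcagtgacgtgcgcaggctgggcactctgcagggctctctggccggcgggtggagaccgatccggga
Myo1e (chr9:70207100-70207399, +): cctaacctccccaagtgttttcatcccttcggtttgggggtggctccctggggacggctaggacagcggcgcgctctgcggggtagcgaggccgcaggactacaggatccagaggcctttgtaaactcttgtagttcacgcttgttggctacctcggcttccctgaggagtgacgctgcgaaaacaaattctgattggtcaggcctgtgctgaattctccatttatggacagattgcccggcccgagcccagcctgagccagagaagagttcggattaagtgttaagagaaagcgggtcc
Myo1f (chr17:33555457-33555756, +): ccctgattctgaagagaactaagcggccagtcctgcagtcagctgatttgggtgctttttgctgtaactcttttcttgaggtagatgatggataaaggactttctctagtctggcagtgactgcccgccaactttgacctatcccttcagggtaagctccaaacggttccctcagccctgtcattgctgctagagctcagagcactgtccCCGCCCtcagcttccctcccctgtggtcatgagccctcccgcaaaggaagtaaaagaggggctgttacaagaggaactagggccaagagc
The letters searched on both strands were GGGCGG (GC box), TGANTCA (AP-1), TGGAAA (NFAT core) and CACGTG (E box). The Myo6 window held 7 GC boxes, some of which overlap, and the Myo1f window 1, while the Myo1e window held none. The 3 other motifs were absent from all 3 windows. Myo1c, which rose as well, has 3 annotated starts, each with 1 GC box in its window, and 1 of these windows also held 1 match each to the AP-1 and NFAT core letters. Among the remaining genes, the Myh9 window held 6 GC boxes, that of Myo9b 3, that of Myo5a 1 and that of Myo1g 0. The Myo18a windows held 0 and 1. Of 32544 RefSeq promoters of the same length, 35.9% held a GC box, 7.79% the AP-1 letters, 21.5% the NFAT core letters and 7.17% the E box letters. The Myo6 window was 68.3% G or C with 22 CG pairs, against 56.7% with 16 in Myo1e and 53.0% with 5 in Myo1f. These matches are a description of the sequence only.

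Myo5a and Myo1g changed less, and both calls depended on single libraries. Myo5a, the class V myosin that carries vesicles and organelles, had 4.39 to 8.93 CPM in Batf3-/- CD62L-, 6.88 to 8.10 CPM in WT CD62L-, 4.55 to 11.9 CPM in Batf3-/- CD62L+ and 3.81 to 7.61 CPM in WT CD62L+ libraries, against 3.05, 4.02 and 2.29 CPM in naive libraries. The WT CD62L+ libraries overlapped the naive ones. Its log2 fold change of primed over naive was 1.07 (SE 0.33, adjusted p = 0.0199, edgeR), and the adjusted p was 0.069 without the first and 0.108 without the third naive library. Myo1g had 162, 198 and 205 CPM in Batf3-/- CD62L- and 202, 205 and 196 CPM in WT CD62L- libraries, and the CD62L+ values given above, against 181, 174 and 195 CPM in naive libraries. Its log2 fold change was 0.19 (SE 0.07, adjusted p = 0.0497, edgeR), 1.14-fold. It was called in 10 of 21 alternatives, over which the adjusted p ran from 0.0109 to 0.208. The libraries whose removal ended the call were any of the 3 naive ones, the second WT CD62L-, the WT CD62L+ libraries 2 and 3, and the Batf3-/- CD62L- libraries 2 and 3.

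Myo6 was called lower in the average of the 4 primed groups, an average that joins WT groups above naive and Batf3-/- groups below it. The log2 fold change was -0.59 (SE 0.17). The low Batf3-/- values that chose Myo6 enter this average, so its p-value is no test and is not given. The nominal call was lost without the second naive library, which had the highest naive value. Set against naive one group at a time, and with no test, Myo6 had log2 fold changes of -1.44 (SE 0.23) in Batf3-/- CD62L-, 0.60 (SE 0.23) in WT CD62L-, -1.84 (SE 0.24) in Batf3-/- CD62L+ and 0.33 (SE 0.23) in WT CD62L+ cells. These 4 values share the naive libraries.

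Myh9, Myo18a and Myo9b did not pass the test of primed against naive cells in the main fit. Myh9 averaged 209 ± 59.2 CPM in Batf3-/- CD62L-, 195 ± 28.1 CPM in WT CD62L-, 200 ± 29.2 CPM in Batf3-/- CD62L+ and 203 ± 33.6 CPM in WT CD62L+ cells, against 156 ± 27.2 CPM in naive cells (SD, n = 3 each). The groups overlapped, and the log2 fold change was 0.37 (SE 0.17, adjusted p = 0.0921, edgeR), or 0.43 with an adjusted p of 0.0228 without the first Batf3-/- CD62L- library. Myo18a, an unconventional class XVIII myosin with little or no motor activity that is found at the Golgi and in actomyosin fibres, ranged from 30.6 to 74.3 CPM over the primed libraries and from 35.1 to 50.1 CPM over the naive ones, with a log2 fold change of 0.25 (SE 0.24, adjusted p = 0.456, edgeR). Myo9b, a class IX myosin, ranged from 45.2 to 74.3 CPM over the primed libraries and from 58.9 to 70.4 CPM over the naive ones, with a log2 fold change of -0.06 (SE 0.14, adjusted p = 0.788, edgeR). For Myh9 and Myo9b the library numbered 1 was the lowest of 3 in 5 of 5 groups, and for Myo18a in 4 of 5. Those libraries also had the low shares of ribosomal RNA loci given above. With a block for replicate number in the fit, Myh9 was called higher in primed cells (log2 fold change 0.365, adjusted p = 0.00443, edgeR), so its call depended on the model.

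Set against naive cells group by group, Myo1c, Myo1e and Myo1f were called higher in each of the 4 primed groups. The log2 fold changes of Myo1c ran from 2.24 to 2.62, those of Myo1e from 5.28 to 5.66, and those of Myo1f from 1.496 in Batf3-/- CD62L+ to 3.05 in WT CD62L- cells. Myo5a was called in WT CD62L- (1.28, adjusted p = 0.0243, edgeR) and Batf3-/- CD62L+ cells (1.31, adjusted p = 0.0217, edgeR). Neither Myo5a call was kept without the first or the third naive library, nor without the third library of the primed group itself. Myo5a had 0.94 (adjusted p = 0.0904, edgeR) in Batf3-/- CD62L- and 0.75 (adjusted p = 0.183, edgeR) in WT CD62L+ cells. Myo1g was called in WT CD62L+ cells alone (0.43, SE 0.09, adjusted p = 0.00258, edgeR). Differences between these group values were not tested. Of all genes, 29.3% were called in Batf3-/- CD62L-, 30.1% in WT CD62L-, 30.2% in Batf3-/- CD62L+ and 27.2% in WT CD62L+ cells. The 4 comparisons share the naive libraries.

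**Figure D4:**
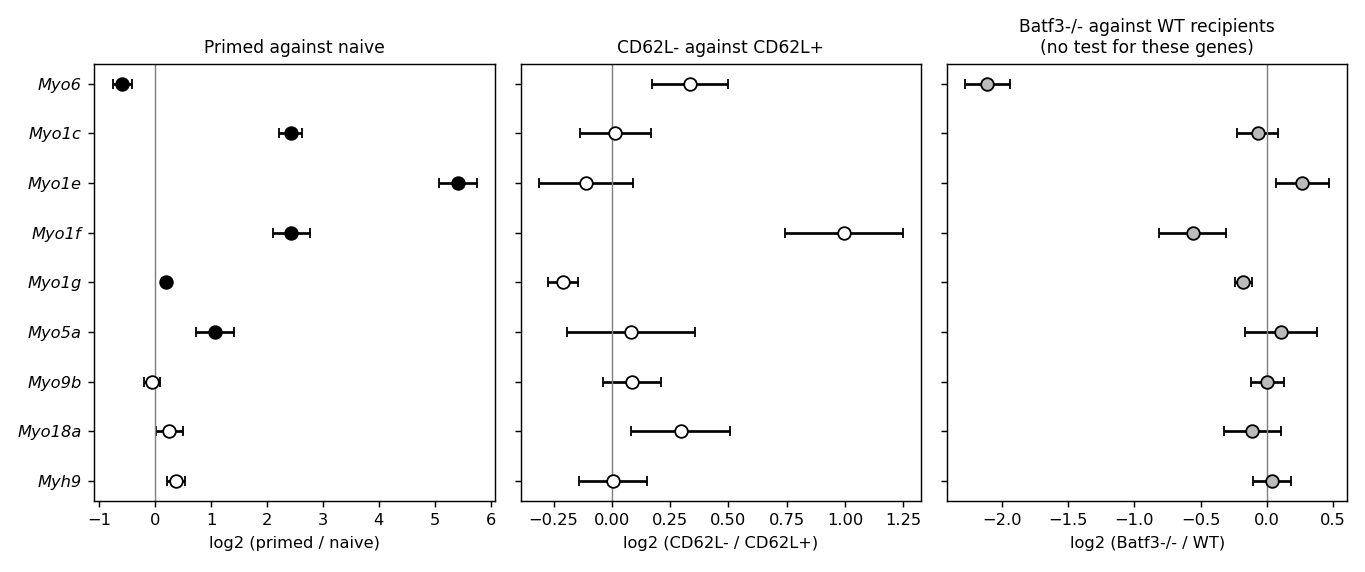
Log2 fold change with SE of each of the 9 genes for the comparisons of primed with naive cells, CD62L- with CD62L+ cells and Batf3-/- with WT recipients, on axes that differ between panels (filled circles passed the edgeR test, open ones did not, grey ones have no test). Myo1e (5.41), Myo1f (2.43) and Myo1c (2.42) stand out in the first comparison, and Myo6 (-2.11) stands apart from the other 8 in the recipient comparison, which is a description. The filled circle of Myo6 in the first panel is no test, because its values in the primed libraries chose it.

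The comparison of CD62L- with CD62L+ cells asks whether the 2 primed subsets differ in their myosins. With both recipients averaged, none of the 9 genes was called (edgeR, Benjamini-Hochberg adjusted p under 0.05), 2 had an unadjusted p under 0.05, and DESeq2 called 2, while 2.96% of all genes were called by edgeR. The 2 genes were Myo1f and Myo1g, and they lay in opposite directions. Myo1f had 10.4 to 16.6 CPM in the 6 CD62L- libraries, against 3.57 to 9.84 CPM in the 6 CD62L+ libraries, with no overlap, a state found in 2.23% of all genes. Its log2 fold change was 0.996 (SE 0.25, adjusted p = 0.0502, edgeR), just outside the threshold. It was called in 10 of 22 alternatives, over which the adjusted p ran from 0.00332 to 0.132. Among these were DESeq2, and the fits without any 1 naive library or without the first Batf3-/- CD62L+ library. Myo1g had a log2 fold change of -0.21 (SE 0.06, adjusted p = 0.110, edgeR), at 195 CPM in CD62L- and 226 CPM in CD62L+ cells, with overlap. Within recipients the log2 fold change of Myo1f was 1.32 (SE 0.36) in Batf3-/- and 0.67 (SE 0.35) in WT cells, and that of Myo1g was -0.13 (SE 0.09) and -0.30 (SE 0.09). Myo6 had 0.34 (SE 0.16, adjusted p = 0.364, edgeR) on average. Within recipients, with no test, it had 0.40 (SE 0.23) in Batf3-/- cells, where the subsets overlapped, and 0.27 (SE 0.23) in WT cells, where every CD62L- library was above every CD62L+ one (no overlap in 17.8% of all genes). Myo18a was at 0.30 (SE 0.21), and Myo1c, Myo1e, Myo5a, Myo9b and Myh9 lay between -0.11 and 0.09. The B cell markers moved with this comparison, with 9 of 12 called lower in CD62L- cells, and their part in it was not tested.

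Myosin VI reaches its cargo through adaptors, and 10 adaptor genes were followed beside it. In primed against naive cells 3 were called higher and 2 lower (edgeR), with a median log2 fold change of -0.05, against 19.5% called higher and 19.3% lower of all genes tested. The higher ones were Gipc1, which couples myosin VI to endocytosed receptors, at 0.58 (63.5 CPM in primed and 42.5 CPM in naive cells), the autophagy receptor Optn at 2.01 (3.67 and 0.771 CPM), and Calcoco1 at 0.24 (94.3 and 79.1 CPM). The lower ones were Tom1l2, an endosomal adaptor, at -1.44 (14.6 CPM in primed and 38.8 CPM in naive cells), and Tax1bp1, an autophagy receptor, at -0.35 (231 and 294 CPM). The count of 5 came to 2 without the first naive library and to 3 without the third naive, the second Batf3-/- CD62L+ or the third Batf3-/- CD62L+ library. Between subsets, Calcoco1 was called higher in CD62L- cells (log2 fold change 0.36, SE 0.07, adjusted p = 0.0118, edgeR), at 106 CPM in CD62L- and 82.5 CPM in CD62L+ cells. In the recipient average the 6 Batf3-/- and 6 WT libraries overlapped for all 10 adaptors, as they did for all but 0.757% of all genes tested. Optn, at 0.53 (SE 0.58) on average, had unlike values in the 2 subsets, and neither was tested. It had 4.84, 2.22 and 5.29 CPM in Batf3-/- CD62L-, against 5.19, 6.50 and 6.36 CPM in WT CD62L- libraries, and 4.63, 2.36 and 3.30 CPM in Batf3-/- CD62L+, against 1.11, 1.53 and 0.743 CPM in WT CD62L+ libraries. The recipients overlapped in CD62L- cells. In CD62L+ cells all Batf3-/- libraries were higher than all WT ones, where 13.1% of all genes did not overlap in either direction. Tom1l2 was at -0.49 (SE 0.20) on average.

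Among the 10 of 15 light chain and calmodulin genes that could be tested, 4 were called higher and 3 lower in primed cells, with a median log2 fold change of 0.09, against 38.8% called of all genes. Myl6, the essential light chain of nonmuscle myosin, had 628 to 714 CPM over the primed libraries, against 332 to 382 CPM over the naive ones, a log2 fold change of 0.91 (SE 0.06, adjusted p = 6.44e-08, edgeR). Calm3, 1 of 3 genes for calmodulin, which is the light chain of class I, V and VI myosins, had 106 to 136 CPM over the primed and 37.9 to 46.8 CPM over the naive libraries, a log2 fold change of 1.49 (SE 0.09, adjusted p = 9.27e-09, edgeR). For both genes the primed and naive libraries did not overlap, a state found in 26.4% of all genes tested. The regulatory light chain Myl12a was higher as well, at 0.47. Lower were Mylpf at -1.18, Myl6b at -0.72 and Myl10, which had 16 counts over the 12 primed and 83 over the 3 naive libraries. None of the 10 was called between the subsets by edgeR, with 0 at an unadjusted p under 0.05 and 0 called by DESeq2.

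Of 20 regulators of myosin II, 4 were called higher and 5 lower in primed cells, with a median log2 fold change of 0.09. This share is near the 38.8% called of all genes. S100a4, a calcium-binding protein that binds the Myh9 heavy chain, had 5.76 to 14.3 CPM over the primed and 0.123 to 0.478 CPM over the naive libraries (log2 fold change 4.99, SE 0.43, adjusted p = 4.76e-07, edgeR). Its primed and naive libraries did not overlap, as in 26.4% of all genes tested. The actin-binding proteins Tpm4 and Cnn2 were higher at 0.59 and 0.57. The kinase Stk10, which phosphorylates membrane linkers in lymphocytes, was lower at -0.77, and Hmha1 and the kinase Cdc42bpa were lower at -0.58 and -3.53.

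The table held 29 further myosin heavy chain genes, of which 14 passed the filter, and 2 were called higher and 3 lower in primed cells, with a median log2 fold change of 0.20. This share too is near the 38.8% called of all genes. Myo9a, the class IX partner of Myo9b, was higher at 0.74 (22.3 CPM in primed and 13.2 CPM in naive cells). Myh10, the heavy chain of nonmuscle myosin IIB, was lower at -1.84 (1.12 and 3.47 CPM), the filopodial motor Myo10 at -2.35 (1.56 and 7.52 CPM), and Myo5b had 44 counts over the primed and 191 over the naive libraries. Myh10 also differed by recipient, given here after its values were seen and without a test. It had 0.460, 0.652 and 0.465 CPM in Batf3-/- CD62L-, against 1.84, 1.24 and 2.69 CPM in WT CD62L- libraries, and 0.751, 0.580 and 0.508 CPM in Batf3-/- CD62L+, against 1.88, 0.525 and 1.87 CPM in WT CD62L+ libraries. The recipients did not overlap in CD62L- cells, a state found in 14.1% of all genes there. They overlapped in CD62L+ cells through the second WT library. The level of Myh10 was far below that of Myo6. Myo1h shares 25.8% of its exonic bases with Kctd10 on the opposite strand, so its count is uncertain.

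The better counted genes near Myo6 on chromosome 9, picked after the value of Myo6 was known, did not share its recipient difference. Of the 8 tested genes that lie within 1 Mb, 3 averaged above 5 CPM. Senp6 had 45.3 CPM in Batf3-/- and 38.2 CPM in WT libraries (log2 fold change 0.24), Cox7a2 had 94.9 and 82.3 CPM (0.21), and Tmem30a had 154 and 170 CPM (-0.15). The 6 Batf3-/- and 6 WT libraries of each of the 8 genes overlapped, as they did for all but 0.757% of all genes tested, so this overlap says little.

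The genes whose profile was most like that of Myo6 were found by the root mean square difference of log2 CPM, each gene centred on its own mean, over the 15 libraries and 11010 genes. The first 5 were Sytl2 at 0.59, Kbtbd7 at 0.67, Efemp2 at 0.70, Dnajc6 at 0.71 and Zfp940 at 0.72, where a flat gene would be 1.04 from Myo6. Sytl2, which encodes a synaptotagmin-like protein, averaged 5.19 CPM in Batf3-/- CD62L-, 10.4 CPM in WT CD62L-, 4.01 CPM in Batf3-/- CD62L+ and 9.35 CPM in WT CD62L+ cells, against 13.3 CPM in naive cells. Like Myo6 it was lowest in both Batf3-/- groups, but it was highest in naive cells. Of the other 8 myosin genes Myo1g came nearest, at 1.01 and place 2460, and Myo1e was farthest, at 2.73 and place 10749.

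**Figure D5:**
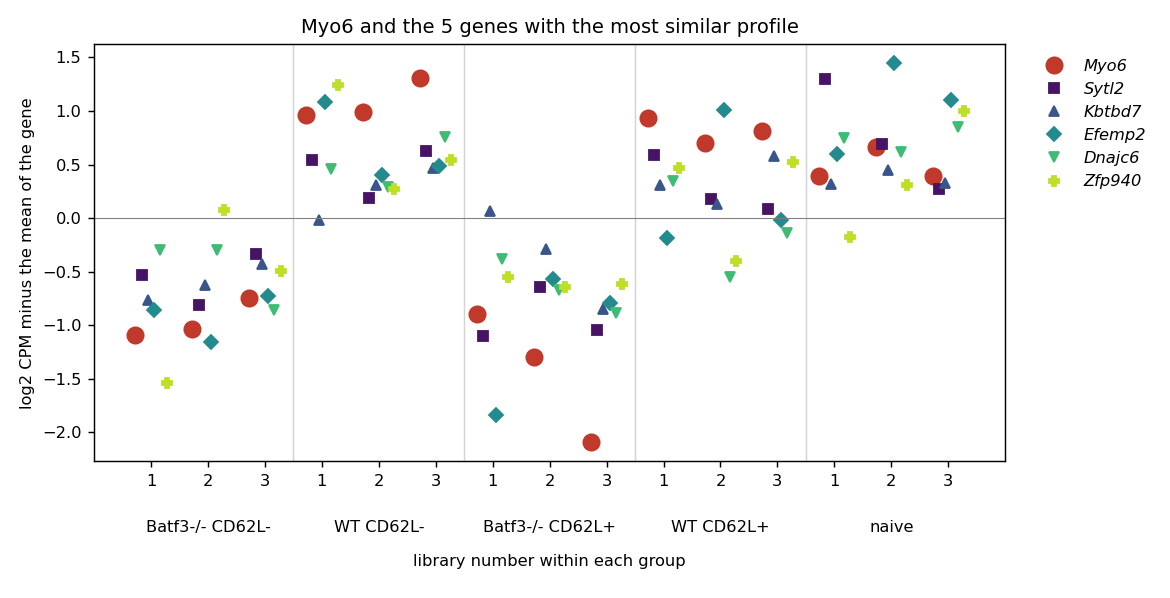
Log2 CPM minus the mean of each gene over the 15 libraries, for Myo6 and the 5 genes with the most similar profile, by library (1 symbol per gene). The symbols of the Batf3-/- libraries lie mostly below 0 and those of the WT and naive libraries mostly above it, and the genes were picked for this likeness.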

How the data were processed

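RNA of sorted cells was purified on columns, amplified as cDNA and built into transposase-based libraries, per the labels' protocols. Reads were handled with STAR 2.7.3a after Trimmomatic 0.36 and FastQC, and counted with featureCounts (Subread 1.6.5) on mm10, per the submitters' processing notes. The values are raw counts, which the authors deposited without scaling, next to gene positions and exon lengths. The annotation release and the strand setting are not given in the sources used here. The table holds no molecular identifiers. The fitted SE and p-values include the spread between replicate libraries.

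Groups came from the sample titles, and columns of no other sample were present (0). Replicates differed far more than sampling noise allows (chi-square over its degrees of freedom, 42.4 to 641.7), so none was a duplicate. edgeR 4.0.16 in R 4.3.3 was run with filterByExpr (minimum count 10, leaving 19942 of 49492 genes), TMM scaling and 1 robust quasi-likelihood fit of the 5 groups over all 15 libraries. P-values were adjusted by Benjamini-Hochberg over all genes tested, with a threshold of 0.05. CPM use the TMM-scaled library size, CPM per kb are divided by exon length, and SE is the size of the log2 fold change over the root of F. The code was tested on simulated data with 100 genes changed 2-fold and 100 changed 4-fold. For primed against naive cells 42 and 62 of these were recovered, with 3 false calls. For CD62L- against CD62L+ cells 46 and 65 were recovered, with 5 false calls. A gene not called can thus still differ. The alternatives tried were scaling by RLE, leaving out the filter, a tighter one (at least 1 CPM in 3 libraries, mean count at least 20), DESeq2 1.42.0, a replicate block, a fit of the 12 primed libraries alone, a fit without the WT CD62L- and Batf3-/- CD62L- libraries numbered 3, and leaving out each library.

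The genes and lists were chosen with earlier results of these data known. From the other lists, the 3 genes with the smallest p per list and direction were named, beside those discussed for low counts or overlap. Sequences come from GENCODE M21 transcripts and RefSeq promoters. A gene that the naming rule took is not reported here.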

Additional observations from a re-analysis of the deposited data

How the results depend on the processing

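For primed against naive cells, 21 alternatives kept the calls of Myo1c, Myo1e and Myo1f. Of the 9 genes 4 to 7 were called, with Myo6 counted where it passed, although its call is no test. Myo9b, not called in any, had log2 fold changes of -0.13 to 0.015 with single libraries left out. For CD62L- against CD62L+ cells, edgeR called 590 genes, DESeq2 1320, and the fits with 1 library left out 388 to 600, the lowest without the second Batf3-/- CD62L+ library. Of the 9 genes, 1 was called with RLE size factors, with no filter, with the stricter filter and with the 12 primed libraries alone, 2 by DESeq2, and 0 to 1 with a library left out. Values near 0 changed sign with a library left out: Myo1c -0.047 to 0.098, Myo1e -0.175 to 0.012, Myo5a -0.126 to 0.312 and Myh9 -0.091 to 0.107, while Myh9 was -0.107 without the WT CD62L- and Batf3-/- CD62L- libraries numbered 3. The cause was not tested.

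The replicate numbers were not taken as pairing the libraries in the main fit, although the libraries partly followed them. Deviations of the 30 same-numbered pairs correlated at 0.016 to 0.111, with 4 above 0.1. Differently numbered pairs correlated at -0.106 to 0.03. The same-numbered correlations were thus weak but all positive. The share of ribosomal RNA loci also went with the replicate number, as given above. What the numbers stand for was not tested. With the replicate block, 985 genes and 2 of the 9 were called between the subsets, Myh9 turned to -0.007 there, and Myh9 was called between primed and naive cells (adjusted p = 0.00443, edgeR). Low counts limit Myo1e and Myo1f in naive cells and Myo5a throughout.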
